A study of Homo sapiens with 4 samples.

Results

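The NECTIN4 locus was examined as the called ATAC-seq peaks whose summit fell between 161.02 and 161.08 Mb of chromosome 1 (hg19). This window of 60 kb holds NECTIN4, also named PVRL4, which spans about 161.041 to 161.059 Mb and is transcribed from its right end. In all, 23 peaks of 295586 in the 4 lists met this rule: 8 of 111635 in SKBR3, 9 of 77458 in T47D, 3 of 39899 in HCT116 and 3 of 66594 in RKO. Position was the sole criterion, so the height of the peaks played no part in choosing them.

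ATAC-seq marks open chromatin by letting a transposase insert sequencing adapters into accessible DNA. The study applied it to 4 established cell lines: the breast cancer lines SKBR3 and T47D, and the colorectal cancer lines HCT116 and RKO. All were labelled as wild type (WT), with no treatment named. With 1 library per line (60 bp reads, single-end), no difference between lines has a replicate check and no test between lines is given. The culture medium was McCoy's 5A for SKBR3 and HCT116, RPMI for T47D and DMEM for RKO. The tissue labels were not checked against marker genes, as no hg19 gene positions were used here. After removal of duplicates the libraries held 1057628 tags (HCT116) to 5450100 tags (T47D). Duplicates were 63% in both colorectal lines and 47% to 49% in the breast lines, so duplicate level and tissue cannot be told apart.

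NECTIN4 encodes nectin-4, a cell adhesion molecule of the immunoglobulin superfamily that joins neighbouring epithelial cells and is linked to the actin cytoskeleton through afadin. It is abundant in breast and urothelial carcinomas, is the target of the antibody-drug conjugate enfortumab vedotin, and serves measles virus as an epithelial receptor. FOS family proteins pair with JUN proteins to form AP-1, a transcription factor that binds the letters TGACTCA and that often occupies enhancers. The series is titled for the control of PVRL4 by FOS family protein. Binding of FOS proteins was not analysed here, so peaks at the locus are described without reference to occupancy by any factor.

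RefSeq (GRCh38.p14) places USF1 and ARHGAP30 on the downstream side of NECTIN4, and KLHDC9, PFDN2 and NIT1 on its upstream side. It also lists an antisense transcript, NECTIN4-AS1, which is on the opposite strand and overlaps NECTIN4. The promoters of both transcripts are printed because peaks lay at the NECTIN4 start and inside the gene, and because AP-1 is the factor the series concerns. Each run holds 250 bases before and 50 bases after the RefSeq start, 5′ to 3′ on the strand of its own transcript. NECTIN4 is at chr1:161089509-161089808 on the minus strand and NECTIN4-AS1 at chr1:161083576-161083875 on the plus strand, both on GRCh38.p14. These positions are not on the build of the peaks (hg19), and neither was converted to the other. Capitals mark every match to the motifs searched.
NECTIN4: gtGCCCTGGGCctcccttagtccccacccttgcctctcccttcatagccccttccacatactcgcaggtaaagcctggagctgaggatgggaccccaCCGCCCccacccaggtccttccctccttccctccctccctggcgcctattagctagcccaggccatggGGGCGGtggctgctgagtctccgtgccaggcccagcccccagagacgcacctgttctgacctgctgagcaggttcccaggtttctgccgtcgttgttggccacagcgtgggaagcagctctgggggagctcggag
NECTIN4-AS1: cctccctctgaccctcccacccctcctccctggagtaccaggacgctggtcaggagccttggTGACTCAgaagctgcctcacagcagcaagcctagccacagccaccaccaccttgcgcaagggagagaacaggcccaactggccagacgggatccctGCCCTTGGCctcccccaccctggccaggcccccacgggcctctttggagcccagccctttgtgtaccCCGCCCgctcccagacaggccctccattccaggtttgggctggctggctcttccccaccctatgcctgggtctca

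The motifs, searched on both strands, were TGACTCA for AP-1, TGANTCA for a relaxed AP-1 motif that includes it, and TGACGTCA for the cAMP response element (CRE). The others were GGGCGG for the promoter element bound by SP1 (GC box), TATAAA for the core promoter element of that name (TATA box), GCCNNNGGC for AP-2 factors and AACNNGTT for grainyhead factors. The printed NECTIN4 run held 2 GC boxes and 1 AP-2 match, and no match to the AP-1, CRE, TATA or grainyhead letters. The NECTIN4-AS1 run held 1 AP-1 match, TGACTCA at bases 63 to 69 counted from its 5′ end, together with 1 GC box and 1 AP-2 match. NECTIN4-AS1 was added to the search after its sequence had been seen. Among 35114 RefSeq promoters of 300 bp, 4.95% held TGACTCA, 7.71% TGANTCA, 45% a GC box and 23.2% an AP-2 match. Of the neighbours, USF1, ARHGAP30, KLHDC9 and NIT1 had a promoter entry and none of these entries held TGACTCA. A match describes letters and is no binding site, and the absence of a match concerns these windows alone.

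Overlapping peaks of the 4 lists merged into 15 regions, numbered 1 to 15 along the chromosome from the downstream side of the gene. SKBR3 had a call in 8 of the 15 regions (53.3%), where it had one in 65.4% of all 167619 merged regions of the genome. T47D had 9 (60.0%, against 45.3% genome-wide), HCT116 had 3 (20%, against 22.7%) and RKO had 3 (20%, against 38.4%). T47D had a larger share at this locus than over the genome, RKO and SKBR3 a smaller share, and HCT116 a share near its background. With 15 regions, each of these differences amounts to no more than a few calls. Of the 15 regions, 10 were called in 1 line, a pattern that held for 60% of regions genome-wide. The remaining 5, numbered 4, 5, 8, 11 and 15, were called in 2 or more lines.

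**Figure D1:**
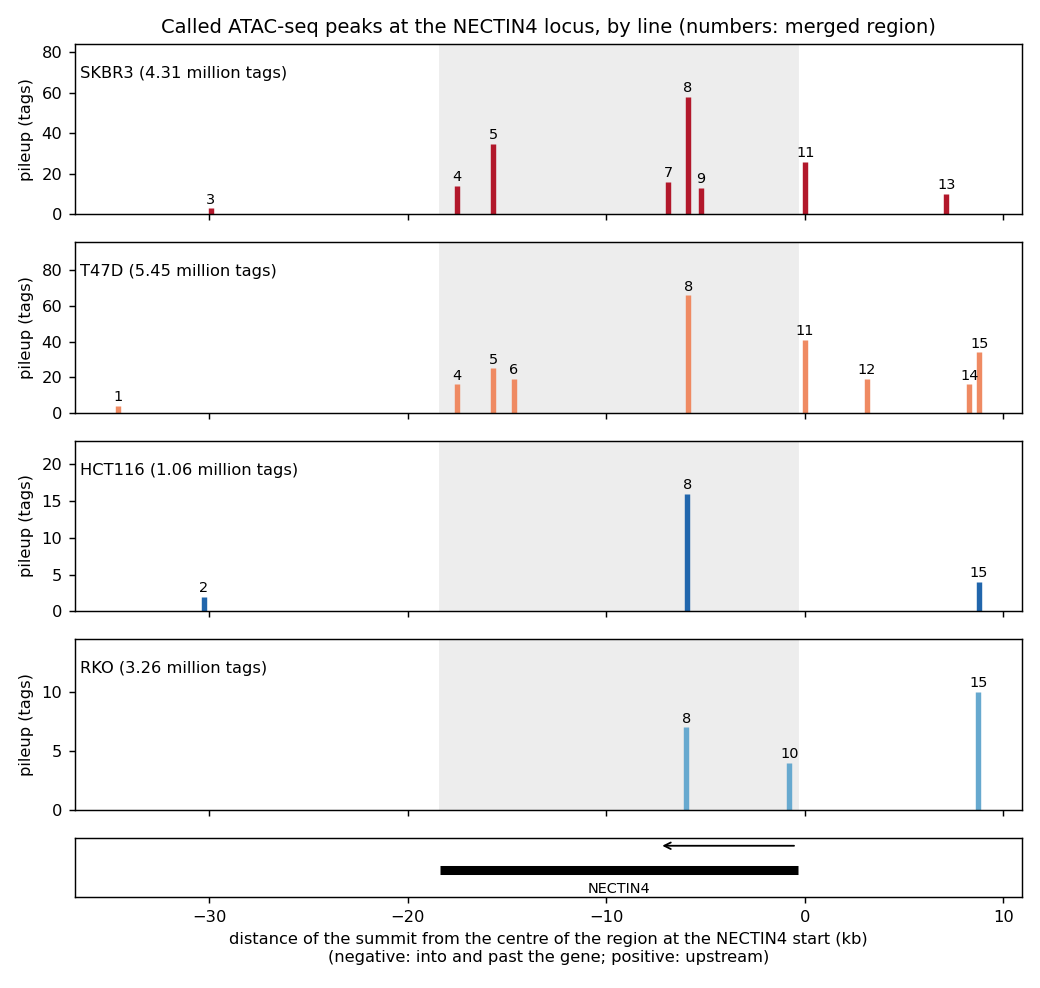
Peaks called at the NECTIN4 locus in each line, as pileup at the summit (tags, linear axis, own scale per line) against distance in kb from the centre of region 11; numbers name merged regions, grey marks the NECTIN4 span rounded to the kb, and the arrow gives the direction of transcription. All 4 lines have region 8 inside the gene, at pileups of 7 to 66, while region 11 at the start is present in SKBR3 (26) and T47D (41).

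Region 11, the region at the NECTIN4 start, was called in both breast lines and in neither colorectal line. It spans 161059164 to 161059559 (chromosome 1, hg19). The gene span was known to the nearest kb, and region 11 lay nearest to its rounded right end, at 164 bp. In SKBR3 the peak was 305 bp wide with its summit at 161059380, a pileup of 26 tags, a fold enrichment of 11.1 over the local background and a −log10 q of 21.1. It ranked 12917 by −log10 q, within the top 11.6% of the SKBR3 list. In T47D the peak was 389 bp wide with its summit at 161059373, a pileup of 41, a fold enrichment of 14.6 and a −log10 q of 37.0. It ranked 8682, within the top 11.2% of the T47D list. Pileup, fold enrichment and q are the values the authors' peak caller gave each peak within its own library. The top percents of the start were close in the breast lines, but they refer to lists of different lengths.

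HCT116 and RKO had no call overlapping region 11. The HCT116 call nearest to its centre was 5910 bp away, in region 8. In RKO the nearest call was region 10, at 161058540 to 161058654, with its summit 780 bp into the gene from the centre of region 11. Region 10 lay 346 bp from the rounded gene end, so it too falls within the rounding of the span. It had a pileup of 4, a fold enrichment of 4.44 and a −log10 q of 3.98, and ranked 43579, in the weaker part of the RKO list (top 65.4%). No other line was called at region 10. The open chromatin called nearest to the NECTIN4 start in RKO was therefore a weak peak that did not overlap the breast peak.

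If the start peak of HCT116 stood to region 8 as it did in the breast lines (26 to 58 in SKBR3, 41 to 66 in T47D), its pileup would be 7.17 or 9.94 tags. Scaled by tags left after duplicate removal, the breast pileups come to 6.37 or 7.96 tags in HCT116. Pileups up to these values were held by 55.4% to 73.2% of called HCT116 peaks, and the lowest called pileup in that list was 2. In RKO the ratio to region 8 gives 3.14 or 4.35 tags, and 24.8% to 34.6% of its called peaks had pileups up to these values, the lowest being 2. RKO peaks of such pileups were called over local backgrounds of up to 0.367 and 0.651 tags, and region 10 was called at a pileup of 4 over a background of 0.126 tags. Scaled by tags left after duplicate removal, RKO would have 19.7 or 24.5 tags, and 82.0% to 87.4% of its called peaks had pileups up to these values. For RKO the expected pileup thus differs by the reference chosen, though both values lie above the lowest pileup called. These figures scale counts of tags from 1 library per line, and no counting error was computed for them. The ratio rests on a region 8 pileup of 16 tags in HCT116 and 7 in RKO, so it is coarse.

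Region 8, inside the gene, was called in all 4 lines, as were 11.8% of merged regions. It spans 161052927 to 161053630 and its summits lay 5.87 to 5.97 kb from the centre of region 11, within 95 bp of one another. The stretch common to the 4 peaks was the whole RKO peak, 298 bp from 161053199 to 161053496. The SKBR3 peak was 704 bp wide with a pileup of 58 and a fold enrichment of 13.7, and it ranked 1227 of 111635 by −log10 q (46.3). The T47D peak was 501 bp wide with a pileup of 66 and a fold enrichment of 18.5, and it ranked 1596 of 77458 (63.1). The HCT116 peak was 359 bp wide with a pileup of 16 and a fold enrichment of 12.5, and it ranked 3166 of 39899 (18.0). The RKO peak was 298 bp wide with a pileup of 7 and a fold enrichment of 6.18, and it ranked 30669 of 66594 (6.17). By −log10 q it was the strongest peak of the locus in SKBR3, T47D and HCT116, above the start peak of both breast lines.

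Set among all 19761 regions called in the 4 lines, region 8 was strong in every line but RKO. In SKBR3 it lay in the top 1.1% of the list, where the median of these regions was the top 18.4%, and 4.21% of them ranked as high. In T47D it lay in the top 2.06% (median 18.3%) and 7.04% ranked as high, and in HCT116 in the top 7.94% (median 32.0%) and 14.7% ranked as high. In RKO it lay in the top 46.1%, below the median of 19.1%, and 82.5% of these regions ranked as high. RKO thus had the region 8 call at a rank that most regions shared by the 4 lines exceeded. Whether region 8 lies at the start of NECTIN4-AS1 was not tested, since no position was converted between the builds. In RefSeq the printed NECTIN4 run lies at 161089509 to 161089808 and the NECTIN4-AS1 run at 161083576 to 161083875. On the build of the peaks, the region at the NECTIN4 start lies at 161059164 to 161059559 and region 8 at 161052927 to 161053630. The spacing within each pair was thus similar. The sequence of region 8 was not examined for motif letters.

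**Figure D2:**
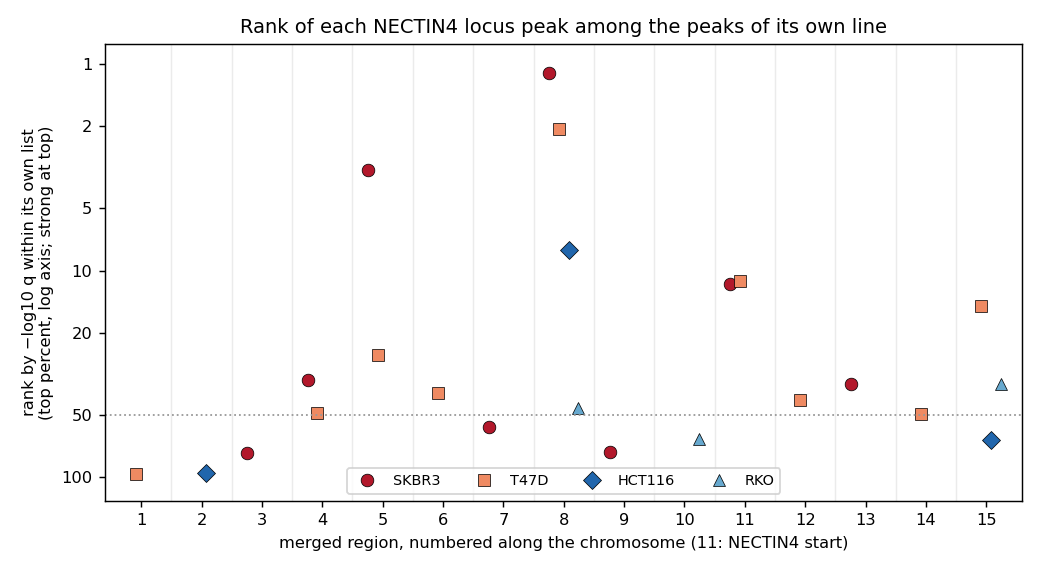
Rank by −log10 q of each of the 23 peaks within its own list, as top percent on a log axis with strong peaks at the top, by merged region and line; the dotted line marks 50%. Region 8 reaches the top 1.1% (SKBR3), 2.06% (T47D) and 7.94% (HCT116) but lies at 46.1% for RKO, and region 11 lies at 11.6% (SKBR3) and 11.2% (T47D).

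SKBR3 also had a call on each side of region 8 that no other list had. Region 7, at 161052426 to 161052544, had a pileup of 16 and a −log10 q of 4.68. Region 9, at 161054061 to 161054198, had a pileup of 13 and a −log10 q of 2.47. Their local backgrounds were 18.8 and 20.1 times the genome-wide level of the library, and the 10 kb range that the caller used for the background at each included region 8. Region 13, upstream, had fewer tags, 10, over a background of 2.90 times that level, and reached a −log10 q of 8.37. The 2 flanking calls thus ranked lower (top 56.9% and 75.8%) than region 13 (top 35.5%) despite their higher pileups.

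Toward the 3′ end of the gene, regions 4 and 5 were called in both breast lines and in neither colorectal line. With region 11 this pattern held for 3 of the 15 regions, where it held for 12.4% of merged regions genome-wide, an excess of about 1 region. The converse pattern, both colorectal lines and neither breast line, held for none of the 15, where it held for 1.61%. Region 5 spans 161043524 to 161043814, 15.69 kb from region 11. In SKBR3 it had a pileup of 35, a fold enrichment of 16.7 and a −log10 q of 35.7, in the top 3.25% of the list, which put it above the start. In T47D it had a pileup of 25, a fold enrichment of 10.8 and a −log10 q of 20.4, in the top 25.6%, which put it below the start. The order of regions 5 and 11 was therefore opposite in the breast lines, each seen in 1 library.

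Region 4, at 161041742 to 161041948, was a weaker neighbour. It had a pileup of 14 and a −log10 q of 8.89 in SKBR3 (top 33.9%) and a pileup of 16 and a −log10 q of 9.76 in T47D (top 49.0%). Relative to region 8 of the same line its pileup was 0.241 in SKBR3 and 0.242 in T47D. The same ratio for region 5 was 0.603 and 0.379, and for region 11 it was 0.448 and 0.621. T47D added region 6, at 161044552 to 161044964, with a pileup of 19 and a −log10 q of 13.0. Neither colorectal line had a call from the 3′ end of the gene to region 8, the nearest being 9725 bp (RKO) and 9782 bp (HCT116) from region 5. By the ratio to region 8, region 4 would come to 3.86 or 3.88 tags in HCT116 and to 1.69 or 1.70 tags in RKO, which is under the lowest pileup called in RKO. Scaled by tags left after duplicate removal it would come to 3.10 or 3.43 tags in HCT116 and to 9.58 or 10.6 in RKO. By the ratio, region 5 would come to 6.06 or 9.66 tags in HCT116 and to 2.65 or 4.22 in RKO. Scaled by tags, region 5 would come to 4.85 or 8.58 tags in HCT116 and to 15.0 or 26.5 in RKO. For RKO, region 4 thus fell under the lowest called pileup by the ratio to region 8 and above it by tags. Whether the absence of region 4 from RKO reflects a limit of detection was not tested.

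Summits of the breast lines lay close together at the shared regions, at distances that were also common elsewhere. They lay 6 bp apart in region 4, 1 bp in region 5, 12 bp in region 8 and 7 bp in region 11. Over the 47878 regions with 1 peak in each breast line the median distance was 28 bp (interquartile range 11 to 55). Of these regions, 16.9% had summits as close as region 4, 4.79% as close as region 5, 28.1% as close as region 8 and 19.1% as close as region 11. All 4 NECTIN4 regions were below the median.

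Genome-wide, 20855 regions had the pattern of both breast lines and neither colorectal line. Of these, 2.13% ranked at least as high as region 5 in both lines, 2.93% at least as high as region 11 and 27.1% at least as high as region 4. The 3 regions whose ranks were most like those of region 11, by the greatest difference in top percent over the 2 lines, were found on chromosomes 7, 1 and 12. At chromosome 7, 4871384 to 4872140, the ranks were the top 11.7% in SKBR3 and 11.2% in T47D, a difference of at most 0.133 percentage points. At chromosome 1, 868477 to 869028, they were 11.5% and 11%, and at chromosome 12, 93935583 to 93936032, 11.2% and 11.5%. Likeness here rests on 2 libraries.

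**Figure D3:**
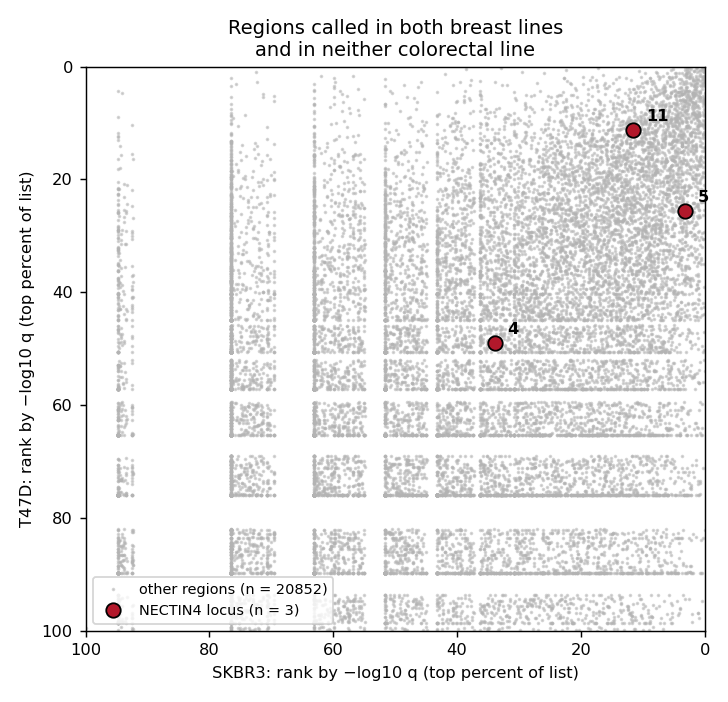
Rank by −log10 q in SKBR3 (x) and T47D (y), as top percent of each list with strong peaks at the upper right, for the 20855 regions called in both breast lines and in neither colorectal line; bands are tied or closely spaced q values. Regions 11 (11.6%, 11.2%) and 5 (3.25%, 25.6%) lie in the strong corner, region 4 (33.9%, 49.0%) nearer the middle.

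Upstream of the start, region 15 was called in T47D, HCT116 and RKO and not in SKBR3, a pattern that held for 0.899% of merged regions. It spans 161067889 to 161068426, 8.80 kb from region 11, on the side where RefSeq lists KLHDC9 as the next gene, on the plus strand. Whether region 15 lies at the start of KLHDC9 was not tested, since no hg19 gene positions were used. Its place upstream therefore does not assign region 15 to NECTIN4. The pileup was 34 in T47D (−log10 q 31.2, top 14.9%), 10 in RKO (8.63, top 35.2%) and 4 in HCT116 (4.21, top 66.3%). In RKO it was the strongest peak of the locus, at 1.43 times the pileup of region 8, against 0.515 times in T47D and 0.250 times in HCT116. The nearest SKBR3 call was region 13, 1676 bp from its centre. Scaled by tags left after duplicate removal, region 15 of the other lines would come to 13.2 to 26.9 tags in SKBR3. By the ratio to region 8 it would come to 14.5 (from HCT116), 29.9 (from T47D) or 82.9 (from RKO) tags. The lowest called pileup in SKBR3 was 2, but the pileup needed for a call rises with the local background. Whether the absence of region 15 from SKBR3 reflects a limit of detection was not tested.

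The other upstream calls were each made in 1 line. T47D had region 12, at 161062384 to 161062556 and 3.11 kb from region 11, with a pileup of 19 and a −log10 q of 11.8. It also had region 14, at 161067538 to 161067750, with a pileup of 16 and a −log10 q of 9.51. SKBR3 had region 13, at 161066379 to 161066675. T47D thus had 3 upstream peaks and SKBR3, HCT116 and RKO 1 each. Downstream of the gene each call was weak: region 1 at 161024741 in T47D (pileup 4), region 2 at 161029062 in HCT116 (pileup 2) and region 3 at 161029409 in SKBR3 (pileup 3). Their −log10 q values were 2.61, 2.19 and 2.22, and a stretch of 12.2 kb between regions 3 and 4 had no call in any line.

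Just outside the window the lines resembled one another on the downstream side. A peak 4.20 to 4.26 kb beyond the left edge had its summit between 161015738 and 161015802 in the 4 lists, with pileups of 26 (SKBR3), 48 (T47D), 11 (HCT116) and 24 (RKO). In RKO this neighbour had 24 tags where the largest peak within the window had 10. On the right side the first peak lay 5.25 kb (HCT116) to 7.90 kb (SKBR3) beyond the edge.

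The number of peaks at NECTIN4 was high for the breast lines when set against other windows of 60 kb. Of 39913 such windows with a peak in at least 1 line, 5.54% held 8 or more SKBR3 peaks and 1.74% held 9 or more T47D peaks. For HCT116 12.2% held 3 or more, and for RKO 23.8%. The median window held 2 peaks in SKBR3 and 1 in each other line. These windows form a fixed grid set without regard to genes, whereas the NECTIN4 window was placed on a gene. With lists cut to equal length, SKBR3 had 5 peaks at the locus, T47D 8, HCT116 3 and RKO 2. The window shares refer to the full lists and were not recomputed for the cut lists. Called bases at the locus came to 2178 (SKBR3), 2628 (T47D), 575 (HCT116) and 720 (RKO). At a −log10 q of at least 10, SKBR3 kept 3 peaks, T47D 6, HCT116 1 and RKO none, with 1300 called bases in SKBR3, and region 8 was then absent from RKO. The threshold lay above the median −log10 q of every list, which was 5.4 (SKBR3), 9.36 (T47D), 5.79 (HCT116) and 5.7 (RKO). T47D came nearest to it over its whole list, and the share of each list that reached it is not given here. A −log10 q of at least 10 is harder to reach in a shallow library, and HCT116 had the fewest tags. RKO, which kept no peak, held 3262240 tags.

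**Figure D4:**
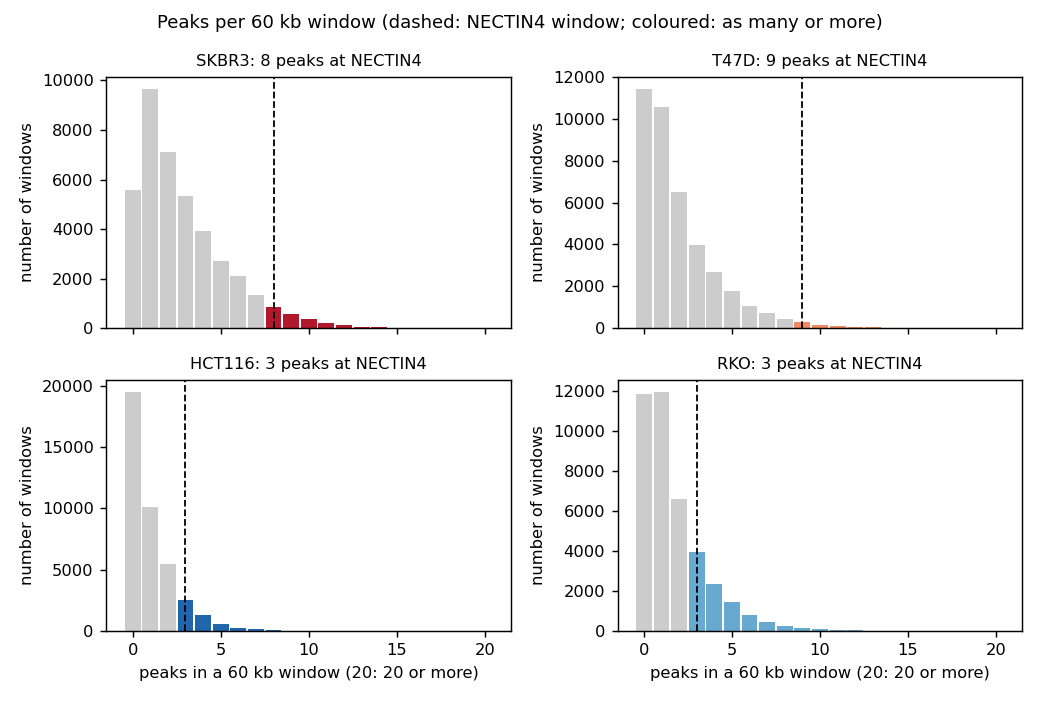
Number of called peaks in each of 39913 windows of 60 kb (x) against the number of windows (y), per line; the dashed line marks the NECTIN4 window and coloured bars the windows with as many peaks or more. The NECTIN4 window lies in the upper tail for T47D (9 peaks, 1.74% of windows) and SKBR3 (8 peaks, 5.54%). For HCT116 (3 peaks) 12.2% of windows held as many or more, and for RKO (3 peaks) 23.8%.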

How the data were processed

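The tools named are Bowtie2 2.4.1 and MACS3 3.0.0b3, with hg19 as the build, per the submitters' processing notes. Per the file headers, each library had its own peak calling, with no control library, a q cutoff of 0.1, 1 tag kept per position and a background range of 10 kb. No shift to the transposase cut is named in the headers, so summits mark extended tags. T47D's file header calls its input T45D. The lists the authors deposited give per peak a pileup signal, a fold enrichment as a ratio to local background, a −log10 q-value and a −log10 p-value (the last not used). Pileup was not scaled between libraries.

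Peaks on chromosomes 1 to 22 and X were ranked within their own list (ties share the better rank) and merged across lists on an overlap of at least 1 bp. The local background was recovered as (pileup + 1) / fold − 1 and given as a multiple of tags × fragment length / genome size. The merging code was run on simulated peaks, with 0 of 4000 regions given a wrong pattern of lines. Simulated peaks of a region always overlapped and neighbouring regions never met. The run therefore checks the code and not the merging of closely spaced real peaks. Alternatives were a −log10 q of at least 10, lists cut to 39899 peaks, the gene span with 10 kb on each side, an overlap of at least 50%, other ranking measures and, chosen after seeing the data, leaving out HCT116. Every peak in the window is named. Planned lists of marker, nectin and FOS genes were not used, for want of hg19 positions. The window, motifs and alternatives were chosen with earlier results of these data known. Promoter sequences are RefSeq's (GRCh38.p14). Python 3.11.15 with pandas 2.3.3 was used.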

Additional observations from a re-analysis of the deposited data

How the results depend on the processing

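Regions of both breast lines and neither colorectal line again numbered 3, and regions of all 4 lines 1, with lists cut to equal length, with the gene span and 10 kb on each side, with an overlap of at least 50% of the shorter peak and without HCT116 (then all 3 lines). Where −log10 q had to reach 10, merged regions numbered 6, the breast-only regions 2 (5 and 11) and regions of all 4 lines 0. SKBR3 then had 3 peaks (1300 bases), HCT116 1 (359 bases) and RKO 0 (0 bases). Over the whole lists the median −log10 q was 5.4 (SKBR3) to 9.36 (T47D), below this threshold in every line. With lists of equal length SKBR3 had 5 peaks, T47D 8, HCT116 3 and RKO 2. The rank of the strongest peak at the locus moved with the measure. By fold enrichment it was the top 2.36% in SKBR3, where region 5 then led, 5.01% in T47D, 7.01% in HCT116 and 31.3% in RKO. By pileup it was 0.598%, 2.4% and 9.30% in SKBR3, T47D and HCT116. The peak at the start lay in the top 13.9% (SKBR3) and 13.8% (T47D) by fold enrichment and 9.64% and 10.7% by pileup. No paired analysis was possible because each line has 1 library and no test was made. With 1057628 tags, HCT116 limits what its absent calls can show.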
